A study of Mus with 6 samples.

Results

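The genes described here encode the subunits of respiratory complexes II, III, IV and V and cytochrome c. They were taken by symbol from the table of normalized counts: the succinate dehydrogenase genes Sdha to Sdhd, every gene whose symbol starts with Uqcr, with Cox followed by 4 to 8 or with Atp5, and Cyc1 and Cycs. The rule found 48 of the 18887 rows, of which 4 belong to complex II, 9 to complex III, 1 is cytochrome c, 17 belong to complex IV and 17 to complex V. Genes were tested when 2 or more libraries had a value of 10 or above, and 47 of the 48 met this. The exception was Cox7b2, which had 0 to 6 reads in every library.

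The mitochondrial respiratory chain passes electrons from nutrients to oxygen and stores the energy as a proton gradient across the inner membrane. Complex II oxidises succinate within the tricarboxylic acid cycle, complex III hands electrons from ubiquinol to cytochrome c, complex IV gives them to oxygen, and complex V, the ATP synthase, uses the gradient to make ATP. Most subunits are encoded in the nucleus, and several subunits of complex IV exist as isoforms that differ between tissues. In the brain, neurons depend strongly on this pathway, while astrocytes and microglia also use glycolysis.

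In RiboTag profiling, ribosomes that carry an epitope tag in one kind of cell are pulled down and the mRNA bound to them is sequenced. The study has 4 such precipitates from whole brain with the knockout genotype, named IRKO, a name that fits an insulin receptor knockout given the title of the series. They were compared with 2 precipitates of the Ctr genotype, and both groups are labelled as microglia, so both are taken to carry the ribosome tag. The age and sex of the mice, the driver of the tag or of the deletion, and the number of animals behind a library are not stated in the labels. P-values therefore measure the spread between these libraries, which may be technical.

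Recovered depth was 13858978 to 14568773 reads in IRKO and 16883098 to 19010680 in Ctr, so precision for most subunit genes was set by the spread between libraries and not by counting. Insr, the insulin receptor gene, had normalized counts of 357, 366, 290 and 340 in IRKO, against 565 and 532 in Ctr (log2 change -0.70 ± 0.135, SE, limma adjusted p = 0.00211). All 12 microglia markers rose in IRKO (median log2 change 1.78), with summed normalized counts of 130341 to 187854 in IRKO and 48006 to 58317 in Ctr. All 12 astrocyte markers fell (median -3.97), with sums of 22715 to 30359 in IRKO and 424389 to 528509 in Ctr. In both Ctr libraries the astrocyte sum was thus above the microglia sum, the reverse of IRKO, though both groups are labelled as microglia. Levels are not per length, so sums over different genes compare only roughly. Of 12 neuron markers 9 rose and 3 did not pass the test (median 1.03), with sums of 58560 to 77437 in IRKO and 32203 to 41092 in Ctr. All 5 red cell markers fell (median -7.06), with sums of 243 to 2132 in IRKO and 75516 to 161622 in Ctr. Of 7 liver markers 6 fell (median -6.99), with sums of 683 to 12043 in IRKO and 4202 to 76511 in Ctr, which overlapped. Of 8 oligodendrocyte markers 5 rose and 1 fell (median 0.81), with sums of 35463 to 65635 in IRKO and 26833 to 34857 in Ctr. No marker of these 6 lists was at 0 in all libraries. The part of these shifts in the changes of the respiratory genes was not tested, and in such bulk precipitates fewer cells of a type and less RNA per cell cannot be told apart.

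The 4 largest falls were those of the complex IV tissue isoforms Cox4i2, Cox8b, Cox6b2 and Cox7a1. All 4 genes of complex II fell, with a median log2 change of -1.29, as did the 4 catalytic and core genes of complex III (median -1.29) and 4 of the 5 F1 genes of complex V (median -1.28). The 5 supernumerary genes of complex III had a median of -0.53, the 5 small membrane genes of complex V one of -0.22, and the 11 complex IV genes that are not tissue isoforms one of -0.20. Of the 47 tested genes 31 fell, 1 rose and 15 did not pass the test at a limma adjusted p under 0.05. Over all 14698 tested genes the same threshold called 55.6%, with 29.0% lower and 26.6% higher in IRKO. The median log2 change of the 47 genes was -0.54, against 0.02 over all genes, and the range ran from -2.67 to 1.11. All 4 IRKO values lay below both Ctr values for 33 of the 47 genes, against 34.8% of all genes, and above both for 3, against 32.8%. A log2 change of -1 or below was seen in 18 of the 47, against 14.7% of all genes. Of the 32 called genes 23 passed the test in every fit that left out 1 library, and the other 9 are named with their complexes. The share of all called genes that passed in every such fit was not counted, so 23 of 32 cannot be set against it. The median log2 change of the 47 genes ranged from -0.70 to -0.42 over the fits that left out 1 library, against 0.0055 to 0.021 over all genes.

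**Figure D1:**
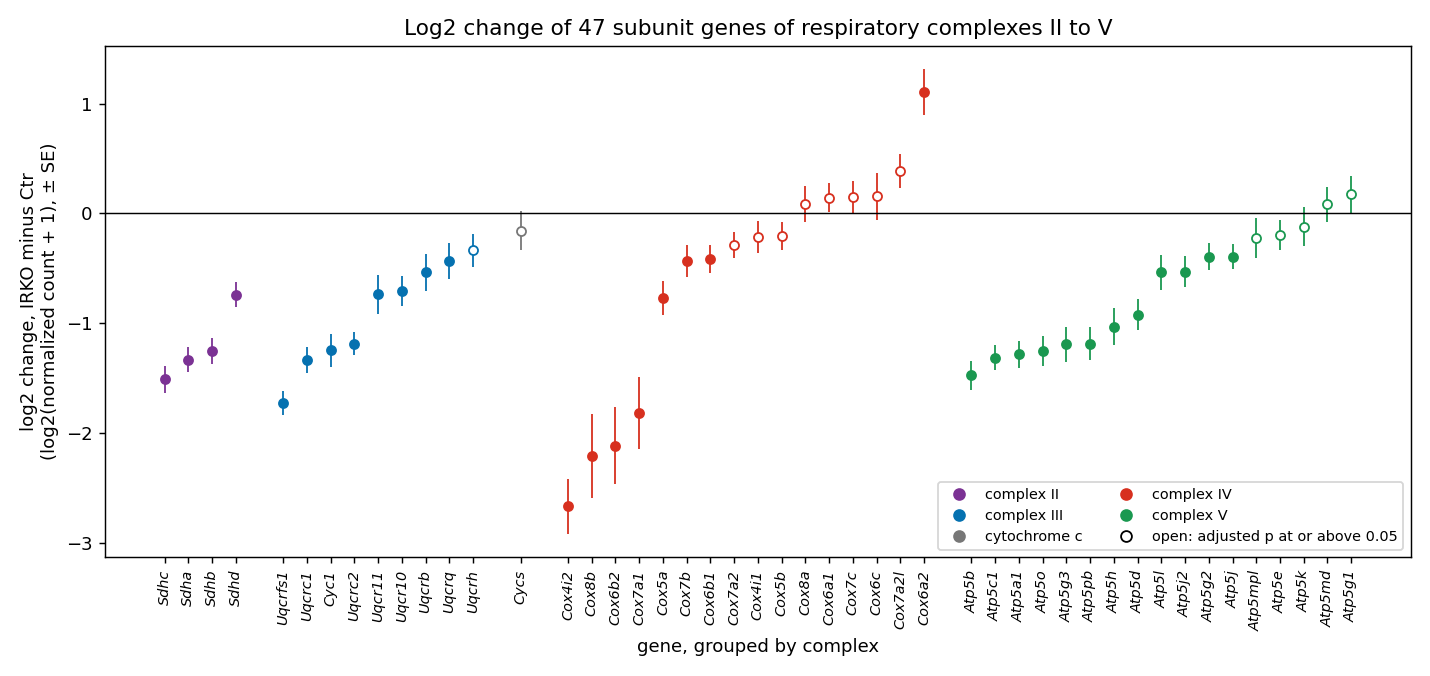
Log2 change (IRKO minus Ctr, on the scale of log2(normalized count + 1)) of the 47 tested genes, grouped by complex and sorted within it, with standard errors from limma; filled points have an adjusted p under 0.05. The 4 genes of complex II and 8 of the 9 of complex III lie below 0 with filled points, while complex IV runs from -2.67 for Cox4i2 to 1.11 for Cox6a2.

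All these values depend on how libraries are scaled to each other, and the groups differ in library make-up. The normalized counts of all genes summed to less in IRKO than in Ctr, and scaling to equal totals moved the median change of all genes from 0.02 to 0.43. Quantile normalization moved it to 0.12, and scaling to an equal mean of the 12 microglia markers moved it to -1.68. TMM scaling left 31 genes lower and 1 higher, where 28.7% of all genes fell and 27.1% rose. Under the other 3 scalings 20, 23 and 47 of the 47 genes fell and 8, 8 and 0 rose, where 16.6%, 24.2% and 86.9% of all genes fell and 46.3%, 30.8% and 0.136% rose. Set against the median of all genes in the same scaling, the median of the 47 genes was -0.55 as deposited, with TMM and with equal totals, -0.38 after quantile normalization and -0.55 with the microglia list. A scaling by 1 factor per library can hardly change this last difference, whereas quantile normalization can.

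**Figure D2:**
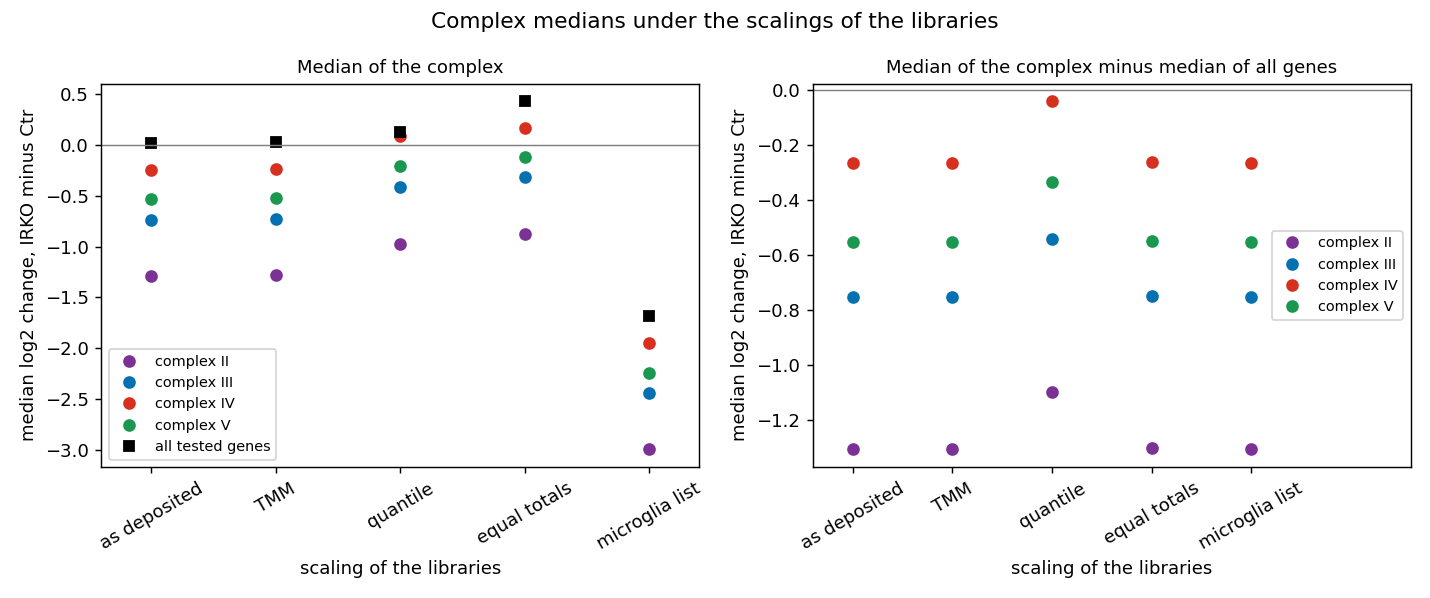
Median log2 change (IRKO minus Ctr) of complexes II, III, IV and V under 5 scalings of the libraries; the left panel adds the median of all tested genes as squares, and the right panel shows each complex minus that median. The median of complex IV changes sign between scalings on the left, and complex II lies lowest under each of the 5 scalings on both sides.

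All 4 genes of complex II fell in IRKO, where 29.0% of all genes fell, and all 4 calls held in every fit that left out 1 library. Complex II is the only complex of the chain with no subunit encoded in mitochondrial DNA. Sdhc, which encodes a membrane anchor that binds haem and ubiquinone, had normalized counts of 2325, 1890, 2007 and 1867 in IRKO, against 5618 and 5853 in Ctr. Its 4 IRKO values lay at about the same level, far below both Ctr values. The log2 change was -1.51 ± 0.122 (SE, limma adjusted p = 1.25e-05), and the gene lies on chromosome 1 (GRCm38.p6) between 171129157 and 171150640. Sdha, the flavoprotein that oxidises succinate, had 3221, 3189, 3156 and 2821 in IRKO, against 7969 and 7589 in Ctr. This is 39.8% of the Ctr mean, with a log2 change of -1.33 ± 0.112 (limma adjusted p = 1.59e-05). Sdhb, the iron-sulfur subunit that relays the electrons, had 2345, 2261, 2254 and 1941 in IRKO and 5337 and 5125 in Ctr (log2 change -1.25 ± 0.116, limma adjusted p = 2.88e-05). Sdha and Sdhb, which form the catalytic part, thus had log2 changes that differed by less than 1 SE. Sdhd, the other membrane anchor, stood apart with the smallest fall of the 4. It had 1047, 1214, 1165 and 1038 in IRKO, against 1778 and 1947 in Ctr, and IRKO was at 59.9% of Ctr (log2 change -0.74 ± 0.115, limma adjusted p = 0.000618). None of the 4 rose by limma, with 0 also at an unadjusted p under 0.05 and 0 with edgeR or DESeq2.

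In complex III, 8 of 9 genes fell, none rose and Uqcrh did not pass the test, with a median log2 change of -0.74. Over all tested genes 29.0% fell and 26.6% rose. The 4 catalytic and core genes had a median of -1.29 and the 5 supernumerary ones a median of -0.53, and the 2 ranges (-1.73 to -1.19 and -0.74 to -0.34) did not meet. Uqcrfs1, the Rieske iron-sulfur protein that takes the first electron from ubiquinol, showed the largest fall of the complex. It had 1523, 1556, 1559 and 1355 in IRKO, against 4892 and 5010 in Ctr. All 4 IRKO libraries were near 30.3% of the Ctr mean, with a log2 change of -1.73 ± 0.108 (SE, limma adjusted p = 2.51e-06), and the gene lies on chromosome 13 from 30540312 to 30545316. Cyc1, cytochrome c1, which passes the electron on to cytochrome c, had 1874, 2103, 2613 and 2515 in IRKO and 5479 and 5226 in Ctr. Its IRKO values were more spread than those of the other catalytic genes but stayed well below both Ctr values (log2 change -1.25 ± 0.149, limma adjusted p = 0.000139). The core proteins Uqcrc1 and Uqcrc2, which face the matrix and are related to processing peptidases, fell to 39.8% and 44% of Ctr. Uqcrc1 had 2959, 3046, 2894 and 2477 in IRKO, against 6951 and 7340 in Ctr (log2 change -1.33 ± 0.121, limma adjusted p = 2.64e-05). Uqcrc2 had 1778 to 2038 in IRKO and 4375 and 4496 in Ctr.

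The supernumerary subunits of complex III are small proteins that stabilise it. Uqcr11, Uqcr10, Uqcrb and Uqcrq fell to 60.6%, 61.2%, 69.3% and 74.8% of their Ctr means. Uqcrh, the hinge protein near cytochrome c1, had 7602, 7810, 7850 and 5920 in IRKO, against 8711 and 9606 in Ctr. All its IRKO values were below both Ctr values, but the log2 change of -0.34 ± 0.150 had a limma adjusted p of 0.0838 and became 0.08 with equal library totals. Without Ctr replicate 2 the calls of Uqcrb (limma adjusted p = 0.185), Uqcrq (0.208) and Uqcr11 (0.0646) were lost. Without that library the median log2 change of the 9 genes of complex III was -0.61. The call of Uqcrq was also lost without Ctr replicate 1 (0.101), without IRKO replicate 1 (0.0619) and without IRKO replicate 2 (0.0501), and with edgeR (0.0543). Uqcrh shares its name with 2 annotated pseudogenes, so reads of these may be mixed. Uqcrq overlaps the coding gene Gdf9, which had at most 70.7 normalized counts in any library, against at least 2807 for Uqcrq. None of the 9 genes rose by limma, with 0 at an unadjusted p under 0.05 and 0 with edgeR or DESeq2.

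Cycs, the somatic cytochrome c that shuttles electrons between complexes III and IV, did not pass the test. It had 4590, 3887, 3942 and 2856 normalized counts in IRKO, against 4013 and 4395 in Ctr, and the groups overlapped. The log2 change was -0.16 ± 0.176 (SE, limma adjusted p = 0.470), its sign turned with equal library totals (0.26) and quantile normalization (0.15), and 3 annotated pseudogenes carry its name. Cyc1, which hands electrons to it, fell in the same libraries.

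**Figure D3:**
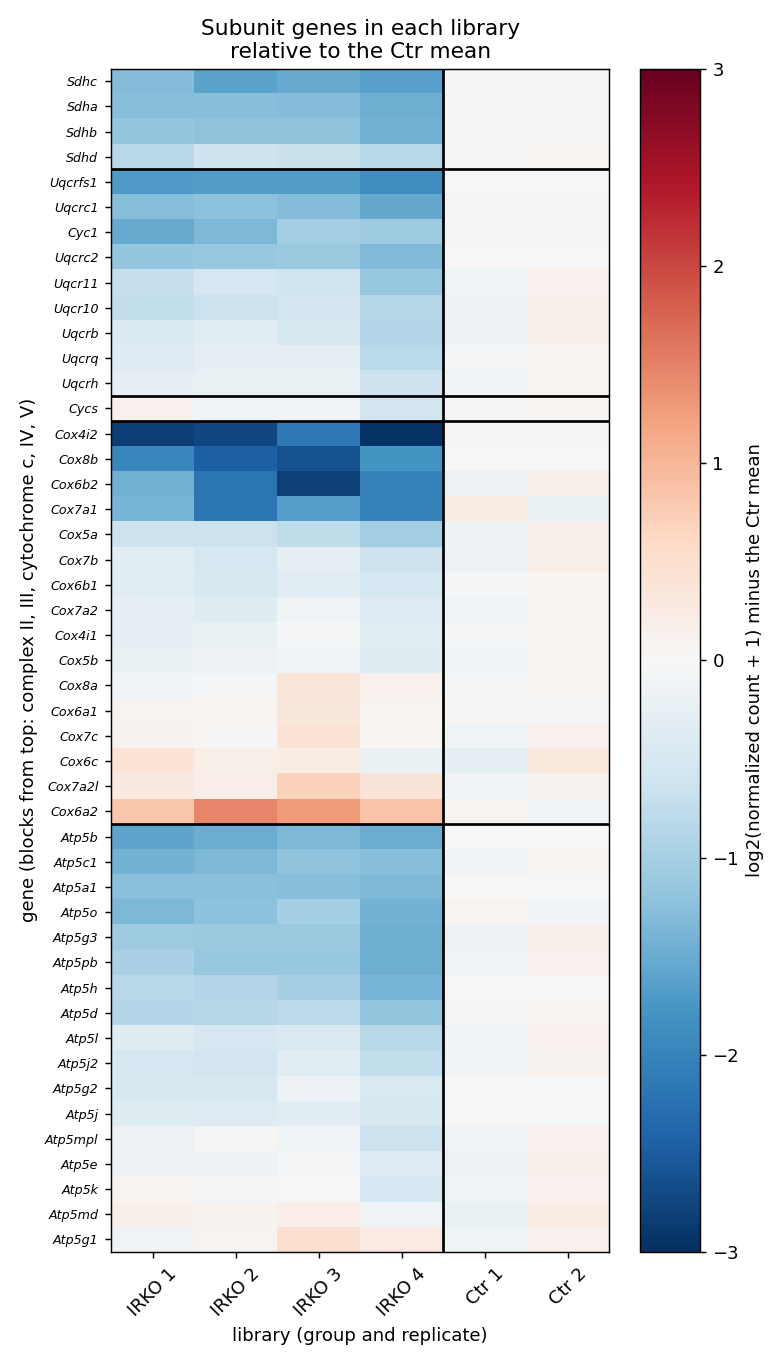
Value of each of the 47 tested genes in each library as log2(normalized count + 1) minus the Ctr mean of the gene, with IRKO libraries on the left, Ctr libraries on the right and black lines between complexes. Blue marks values below the Ctr mean, as in all 4 IRKO libraries for the genes of complex II, and IRKO replicate 4 holds the lowest IRKO value in 34 of the 47 genes.

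The libraries of a group also differed from each other along these genes. IRKO replicate 4 had the lowest IRKO value in 34 of the 47 genes (72.3%), against 29.5% of all tested genes, and IRKO replicate 3 had the highest in 26 (55.3%), against 26.1% of all. Ctr replicate 2 exceeded Ctr replicate 1 in 35 of the 47 genes (74.5%), against 47.2% of all. Cox6c, for example, had 8641 in Ctr replicate 1 and 12778 in Ctr replicate 2, whereas Atp5b had 22914 and 23046.

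Among the 16 tested genes of complex IV 7 fell, 1 rose and 8 did not pass the test, with a median log2 change of -0.25 that turned to 0.17 with equal library totals and 0.08 after quantile normalization. Mitochondrial DNA encodes its catalytic core, and no mitochondrially encoded gene was analysed here, so all values are of the nuclear-encoded subunits around that core. The 11 genes that are not tissue isoforms had a median of -0.20 and a range of -0.77 to 0.39, and 3 of the 11 fell, a share near the 29.0% of all genes. Cox5a, a subunit on the matrix side, fell furthest among these. It had 4503, 4376, 4032 and 3312 in IRKO, against 6169 and 7655 in Ctr (log2 change -0.77 ± 0.156, SE, limma adjusted p = 0.00272). Cox5b, its zinc-binding neighbour, had 6609, 6722, 7133 and 5923 in IRKO and 7121 and 8074 in Ctr. The groups overlapped, and the log2 change of -0.20 ± 0.127 did not pass (limma adjusted p = 0.199). Cox6c and Cox7c, small transmembrane subunits without tissue isoforms, had log2 changes of 0.16 ± 0.211 and 0.15 ± 0.148 with groups that overlapped. Their direction turned to lower only when libraries were scaled to the microglia list, or for Cox6c also without Ctr replicate 1 (-0.13).

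Of the 6 ubiquitous isoforms of complex IV 2 fell and 4 did not pass the test, a share near the 29.0% of all genes that fell. Cox4i1, the form of subunit 4 found in most cells, had 16356, 16547, 18993 and 15224 in IRKO, against 18596 and 20258 in Ctr (log2 change -0.21 ± 0.149, limma adjusted p = 0.245, and 0.20 with equal library totals). Cox6a1, Cox8a and Cox7a2 did not pass the test either. Cox6a1 had 10802, 10738, 12868 and 10798 in IRKO and 10443 and 9944 in Ctr, with all IRKO values above both Ctr values (log2 change 0.14 ± 0.135, limma adjusted p = 0.383). Cox8a had 14537 to 19764 in IRKO, which spanned the Ctr values of 14771 and 16174. Cox7a2 had 3377 to 4007 in IRKO, against 4153 and 4625 in Ctr, and its log2 change was -0.28 ± 0.119 (limma adjusted p = 0.0683, and 0.0403 without IRKO replicate 3). Cox6b1, which faces the intermembrane space, and Cox7b fell to 75% and 73.8% of Ctr (limma adjusted p = 0.0198 and 0.0335). Without Ctr replicate 2 the adjusted p was 0.138 for Cox6b1 and 0.293 for Cox7b, and without IRKO replicate 2 it was 0.0556 and 0.0776. Cox6b1 also lost its call without Ctr replicate 1 (0.0639), and Cox7b without IRKO replicate 4 (0.0642).

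Cox7a2l encodes a relative of Cox7a2 that joins complexes III and IV into supercomplexes. It had 4437, 4193, 5888 and 4787 in IRKO, against 3399 and 3938 in Ctr, and all IRKO values exceeded both Ctr values. The log2 change of 0.39 ± 0.153 missed the threshold with limma (adjusted p = 0.0564) and passed it with DESeq2 (adjusted p = 0.0283) and without IRKO replicate 2 (limma adjusted p = 0.0470). The log2 ratio of Cox7a2l over Cox7a2 was 0.41 ± 0.138 in IRKO (SD, n = 4) and -0.26 ± 0.0401 in Ctr (SD, n = 2), and the groups did not overlap. The difference of 0.67 was 0.66 after quantile normalization.

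**Figure D4:**
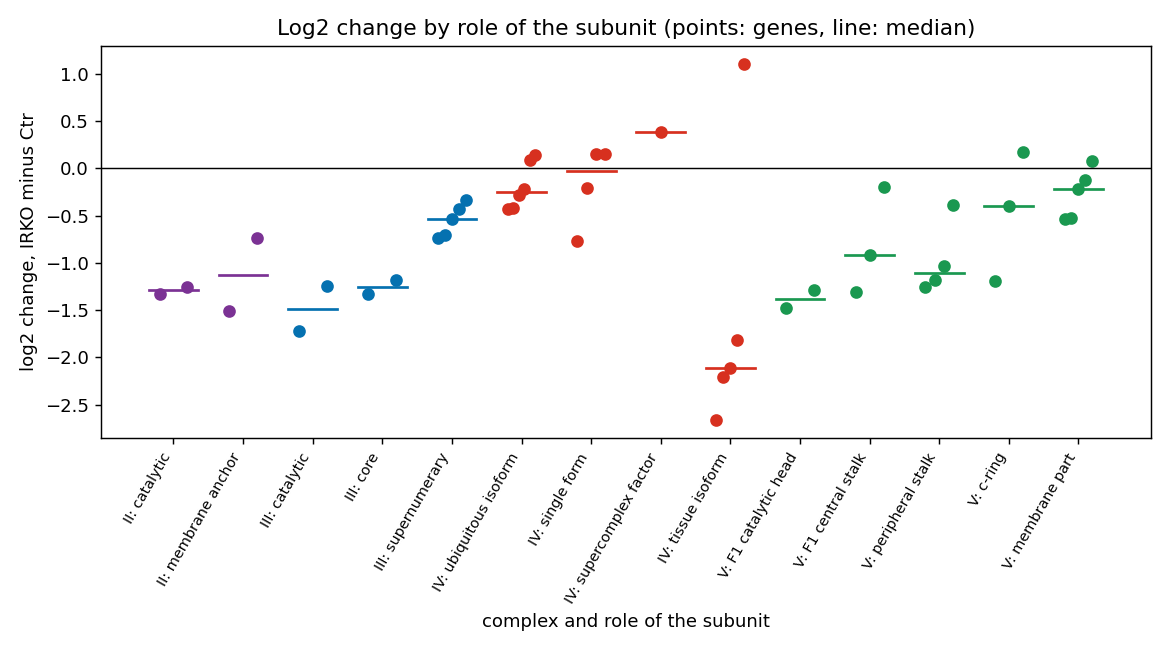
Log2 change (IRKO minus Ctr) of the 47 tested genes except Cycs, arranged by complex and by the subunit's role, with a line at the median of each role. The catalytic and core genes of complex III (-1.73 to -1.19) lie below its supernumerary genes (-0.74 to -0.34), and the tissue isoforms of complex IV hold both the lowest value, -2.67, and the highest, 1.11.

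Of the tissue isoforms of complex IV, Cox4i2, Cox8b, Cox6b2 and Cox7a1 fell and Cox6a2 rose, each with 4 IRKO values outside the range of both Ctr values and with a call that held in every fit that left out 1 library. Among all tested genes 55.6% were called with the 6 libraries. All IRKO values lay below both Ctr values in 34.8% of all genes and above both in 32.8%. Cox4i2, the form of subunit 4 known from lung and from pericytes of brain vessels, had 40.6, 43.4, 66.1 and 37 normalized counts in IRKO, against 303 and 287 in Ctr. This is 15.9% of the Ctr mean, with a log2 change of -2.67 ± 0.252 (SE, limma adjusted p = 3.35e-05). Cox4i2 lies on chromosome 2 from 152753916 to 152765039 and overlaps Bcl2l1, a survival gene of the BCL2 family, which had 2583 to 2794 in IRKO and 2271 and 2611 in Ctr. Of the 12 endothelial and mural markers 7 rose and 1 fell (median log2 change 0.74), with summed normalized counts of 3821 to 13132 in IRKO and 3822 to 4426 in Ctr. None of them was at 0 in all libraries, and the part of vessel cells in the fall of Cox4i2 was not tested.

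Cox8b and Cox7a1 are the heart and skeletal muscle forms of subunits 8 and 7a, also known from brown fat in the mouse. Cox8b had 13, 9, 8 and 15 reads in IRKO, against 47 and 55 in Ctr, or normalized counts of 12.9, 8.87, 7.77 and 14.6 against 52.9 and 53.3. The log2 change was -2.21 ± 0.379 (SE, limma adjusted p = 0.00109). Cox7a1 had 27.7, 15.8, 23.3 and 17.5 in IRKO, against 87.7 and 63.9 in Ctr (log2 change -1.81 ± 0.326, limma adjusted p = 0.00141). The Ctr mean was 4.81 times the IRKO mean for Cox8b and 3.60 times for Cox7a1. Of 10 striated muscle markers 3 could be tested, Acta1 rose and the other two did not pass. The list summed to 206 to 270 normalized counts in IRKO and 96.7 to 139 in Ctr. Actc1, cardiac actin, was at 0 in all 6 libraries, and the heart myosin Myh6 and the muscle creatine kinase Ckm stayed under 6 normalized counts. The part of muscle cells in the falls of Cox8b and Cox7a1 was not tested.

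Cox6b2 is known as the testis form of subunit 6b. It had 59.4, 34.5, 22.3 and 39 normalized counts in IRKO, against 144 and 182 in Ctr, with a log2 change of -2.11 ± 0.351 (SE, limma adjusted p = 0.000897). IRKO replicate 1 was the highest of its group and still lay at less than the lower Ctr value. Cox7b2, the testis form of subunit 7b, had 6, 0, 2 and 0 reads in IRKO and 2 and 6 in Ctr, too few for a comparison. The testis markers Tnp1, Ldhc and Odf1 were at or near 0, with sums of 0.972 to 1.95 normalized counts in IRKO and 0 in both Ctr libraries.

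Cox6a2 was the single gene of the 47 to rise by limma; edgeR called 1 higher and DESeq2 2, the other being Cox7a2l. It encodes the heart and skeletal muscle form of subunit 6a, which in the mouse brain is known from parvalbumin interneurons. Its normalized counts were 218, 337, 299 and 221 in IRKO, against 128 and 116 in Ctr. All IRKO values exceeded both Ctr values, and the log2 change was 1.11 ± 0.207 (SE, limma adjusted p = 0.00173). Under scaling by the microglia list its log2 change was -0.59 (limma adjusted p = 0.0431), where the median of all genes was -1.68. Cox6a2 stood 1.09 above the median of all genes as deposited and 0.99 above it after quantile normalization. The other scalings use 1 factor per library and can hardly change this difference. Cox6a2 lies on chromosome 7 from 128205435 to 128206366 and overlaps Itgad, an integrin gene that had at most 8.77 normalized counts in any library. Pvalb, the calcium buffer of those interneurons, had 2470, 2383, 2688 and 1618 in IRKO and 732 and 726 in Ctr. Its log2 change of 1.62 was the largest of the 12 neuron markers, of which 9 rose and 3 did not pass the test (median 1.03). Acta1, a muscle actin, had a log2 change of 1.47 ± 0.215 (limma adjusted p = 0.000439). It was the only 1 of the 3 tested striated muscle markers to rise, and the other 2 did not pass the test. The part of neurons or muscle in the rise of Cox6a2 was not tested.

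Isoform ratios within a library are left nearly unchanged by a scaling with 1 factor per library but not by quantile normalization, and 8 pairs had both members tested. As log2 of the normalized counts plus 1, the ratio of Cox4i2 over Cox4i1 was -8.49 ± 0.232 in IRKO (SD, n = 4) and -6.04 ± 0.142 in Ctr (SD, n = 2), a difference of -2.45. The ratio of Cox8b over Cox8a differed by -2.29, that of Cox6b2 over Cox6b1 by -1.70 and that of Cox7a1 over Cox7a2 by -1.53. The ratio of Cox6a2 over Cox6a1 ran the other way, with a difference of 0.96 that was 0.57 after quantile normalization. In all 8 pairs the groups did not overlap, and each exact two-sided permutation p was 0.0667, the smallest possible with 4 libraries against 2. Adjusted over the 8 pairs it remained 0.0667, so none can pass a threshold of 0.05 in this design.

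**Figure D5:**
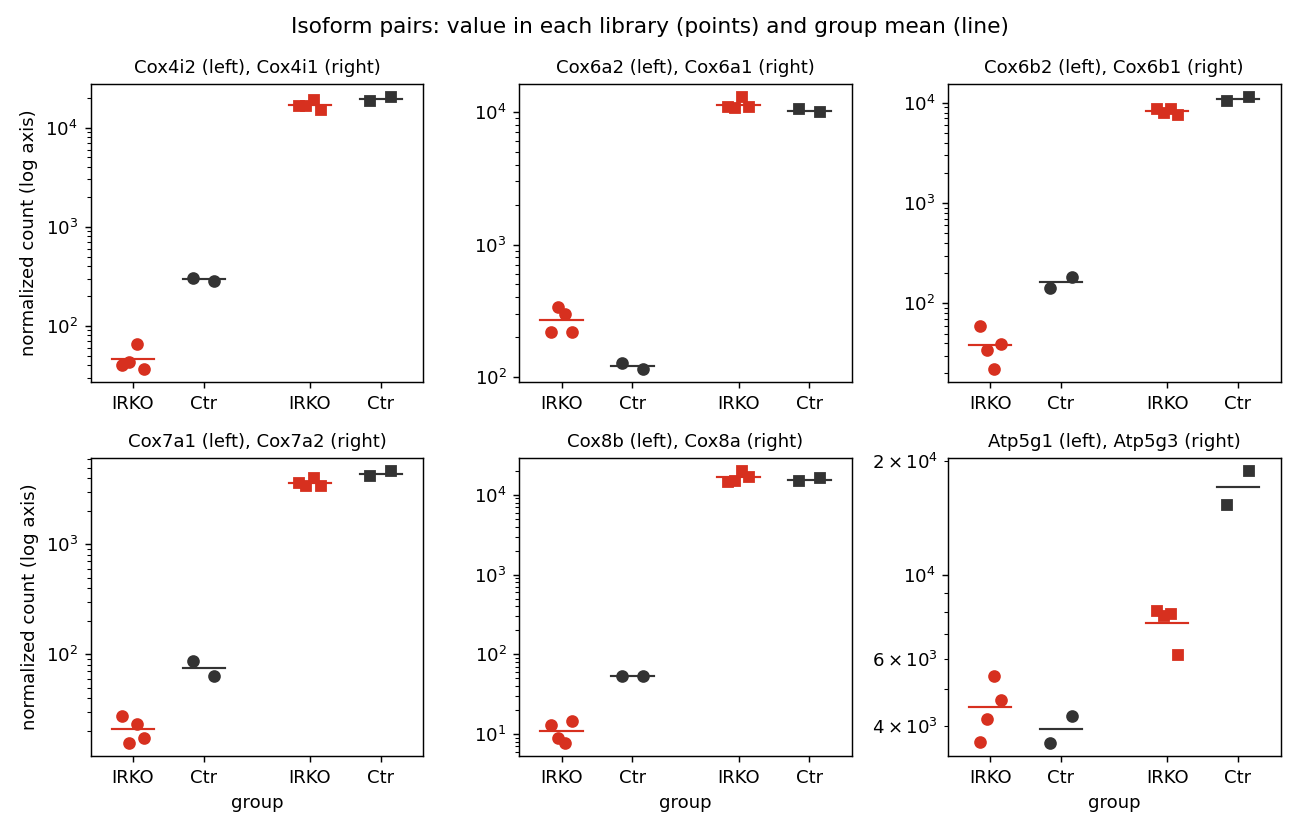
Normalized counts on a log axis of 6 isoform pairs in each library, with IRKO in red left of Ctr in black, circles for the first gene of the pair, squares for the second and a line at each group mean. Cox4i2, Cox6b2, Cox7a1 and Cox8b lie lower in all 4 IRKO libraries than in both Ctr libraries, Cox6a2 lies higher, and in the last panel Atp5g3 is lower while Atp5g1 overlaps.

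Complex V, with 17 tested genes, showed 12 falls, no rise and 5 genes that did not pass, with a median log2 change of -0.54. Over all tested genes 29.0% fell and 26.6% rose. Atp5b, the catalytic beta subunit, had 7667, 8219, 9010 and 8246 in IRKO, against 22914 and 23046 in Ctr. IRKO stood at 36.1% of Ctr, with a log2 change of -1.47 ± 0.129 (SE, limma adjusted p = 2.02e-05), and the gene lies on chromosome 10 from 128083307 to 128090388. Atp5a1, the alpha subunit that alternates with beta in the head, had 8056, 7998, 7882 and 7556 in IRKO and 19273 and 19045 in Ctr (log2 change -1.28 ± 0.119, limma adjusted p = 2.97e-05). Atp5c1, the gamma subunit that turns inside the head, had 3300, 3422, 3812 and 3582 in IRKO, against 8245 and 9281 in Ctr (log2 change -1.31 ± 0.117, limma adjusted p = 2.37e-05). In all 3 genes every IRKO value lay below both Ctr values, as in 34.8% of all genes. The gene Atp5d overlaps the coding gene Cbarp (mean 3628 in IRKO and 2337 in Ctr), and mixing of their reads was not tested. Atp5d, the delta subunit at the foot of the stalk, fell to 53% of Ctr. Atp5e, the epsilon subunit beside it, had 1506, 1516, 1617 and 1289 in IRKO, which overlapped the Ctr values of 1491 and 1918 (log2 change -0.20 ± 0.139, limma adjusted p = 0.257).

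The peripheral stalk holds the head still while the rotor turns. Its 4 genes fell, where 29.0% of all genes fell. Atp5o fell to 42.1% of Ctr, Atp5pb to 44.1%, Atp5h to 49.5% and Atp5j to 76.3%. Atp5o, which sits on top of the head and is known for oligomycin sensitivity, had 3102, 3353, 3891 and 2943 in IRKO, against 8299 and 7482 in Ctr (log2 change -1.25 ± 0.137, limma adjusted p = 8.17e-05). Atp5j, coupling factor 6, had 7067 to 7857 in IRKO and 9861 and 9905 in Ctr, and its log2 change of -0.39 ± 0.116 (limma adjusted p = 0.0181) did not pass without Ctr replicate 1 (0.0942) or Ctr replicate 2 (0.0954).

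Of the 5 small membrane subunits of complex V 2 fell, where 29.0% of all genes fell. Atp5l and Atp5j2 fell to 69.2% and 69.4% of Ctr, and both calls were lost without Ctr replicate 2 (limma adjusted p = 0.140 and 0.102). Atp5k, Atp5md and Atp5mpl did not pass the test, and their groups overlapped. Their log2 changes were -0.12 ± 0.176, 0.08 ± 0.156 and -0.22 ± 0.183. Atp5k and Atp5l share their names with 4 and 3 annotated pseudogenes. No gene of complex V rose by limma, with 0 at an unadjusted p under 0.05 and 0 with edgeR or DESeq2.

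The c-ring, the rotor in the membrane, is built from a single mature protein that 3 genes encode with different targeting peptides. Atp5g3 and Atp5g2 fell and Atp5g1 did not pass the test, where 29.0% of all genes fell. Atp5g3 had 8056, 7801, 7904 and 6142 in IRKO, against 15324 and 18833 in Ctr, a log2 change of -1.19 ± 0.159 (SE, limma adjusted p = 0.000261). Atp5g2 had 4106, 4105, 5026 and 4152 in IRKO and 5696 and 5682 in Ctr (log2 change -0.39 ± 0.125, limma adjusted p = 0.0242). Its call was lost without Ctr replicate 1 (0.108), Ctr replicate 2 (0.102), IRKO replicate 1 (0.0516) and IRKO replicate 2 (0.0629). Atp5g1 had 3618, 4166, 5430 and 4666 in IRKO, which overlapped the Ctr values of 3608 and 4249 (log2 change 0.18 ± 0.167, limma adjusted p = 0.395). The log2 ratio of Atp5g1 over Atp5g3 was -0.75 ± 0.345 in IRKO (SD, n = 4) and -2.12 ± 0.0437 in Ctr (SD, n = 2), and that of Atp5g2 over Atp5g3 was -0.78 ± 0.201 in IRKO and -1.58 ± 0.213 in Ctr.

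Summed over its genes, complex II held 7667 to 8938 normalized counts in IRKO, against 20514 to 20703 in Ctr. Complex III held 24749 to 31570 in IRKO and 49356 to 53909 in Ctr, and complex V held 74134 to 89960 in IRKO and 145955 to 157744 in Ctr. For these 3 complexes every IRKO sum lay below both Ctr sums. Complex IV held 86849 to 106168 in IRKO and 94161 to 107532 in Ctr, with groups that overlapped. As a share of all normalized counts of a library, complex IV was higher in IRKO, at 0.675% ± 0.0614 (SD, n = 4) against 0.540% ± 0.0625 (SD, n = 2) in Ctr, while complex II was at 0.0602% ± 0.00261 in IRKO and 0.110% ± 0.00172 in Ctr. All 48 genes together took 1.57% ± 0.118 of the IRKO libraries and 1.76% ± 0.152 of the Ctr libraries, and the groups overlapped. A sum is carried by its most abundant genes, and the share depends on the rest of the library.

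Assembly factors and regulators of these complexes, from a list of 45 symbols with 42 rows and 40 tested genes, included genes called in either direction. Of the 40, 9 fell, 6 rose and 25 did not pass the test, where 29.0% of all genes fell and 26.6% rose, and the median log2 change was -0.18. The number that rose was 1 without Ctr replicate 1 and 3 without IRKO replicate 2. For complex II 1 of 4 fell, and for complex III 3 of 7 fell and 3 rose. For complex IV 4 of 25 fell and 2 rose, and for complex V 1 of 4 fell and 1 rose. The complex IV list holds Ndufa4, a subunit and not an assembly factor, which was counted among those that fell. Its log2 change was -0.61 ± 0.172 (SE, limma adjusted p = 0.0139). The complex III list holds Cyct, the testis cytochrome c, which was not tested. Among those that fell were Cox10 and Taco1 of complex IV, Sdhaf2 of complex II and Bcs1l of complex III. Cox10, which makes the haem A precursor, had a mean of 387 ± 27.0 in IRKO (SD, n = 4) and 865 ± 156 in Ctr (SD, n = 2), a log2 change of -1.15 ± 0.140 (SE, limma adjusted p = 0.000152). Taco1, a translational activator of mitochondrial Cox1, changed by -1.34 ± 0.174, Sdhaf2, which helps attach the flavin to Sdha, by -1.03 ± 0.133, and Bcs1l, which inserts the Rieske protein into complex III, by -1.04 ± 0.141. Bcs1l and its client Uqcrfs1 were both lower in all IRKO libraries than in both Ctr libraries, as were 34.8% of all genes. Ttc19 and Lyrm7, which also act on the Rieske protein, changed the other way (0.44 and 0.56).

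Those that rose included Cox17, a copper chaperone of complex IV, at 2173 ± 244 in IRKO (SD, n = 4) and 1456 ± 45.4 in Ctr (SD, n = 2), a log2 change of 0.57 ± 0.127 (SE, limma adjusted p = 0.00445). Ttc19 and Lyrm7, which act in the maturation of the Rieske protein, rose by 0.44 ± 0.122 and 0.56 ± 0.170, and Coa5, an assembly factor of complex IV, rose by 0.33 ± 0.102. Atpif1, the inhibitor that stops complex V from running backwards, is the regulator that rose on the complex V list, and it was singled out after its values were seen. It had 8549, 7796, 6554 and 4710 normalized counts in IRKO, against 3290 and 4828 in Ctr, so that IRKO replicate 4 lay below the higher Ctr library (log2 change 0.76 ± 0.243, SE, limma adjusted p = 0.0252). Without Ctr replicate 1 its log2 change was 0.48 (limma adjusted p = 0.222), and without IRKO replicate 2 it was 0.69 (0.0576). The calls of Ttc19 (0.0752), Lyrm7 (0.122) and Coa5 (0.0795) were also lost without Ctr replicate 1, those of Ttc19 (0.0586) and Coa5 (0.133) without Ctr replicate 2, and that of Lyrm7 (0.0510) without IRKO replicate 2. Cox17 passed in every fit that left out 1 library. Scaled to the microglia list, where all genes had a median of -1.68, each of these 5 had a negative log2 change (-1.37 to -0.94).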

How the data were processed

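One table of 6 libraries was analysed. Per the file headers and the values, the deposited signal of a gene is its read count divided by 1 size factor per library; 100% of values were whole multiples of the smallest value within 0.05 reads, and the factors equal median-of-ratios factors. Bowtie2 and GRCm38.p6 are named in the submitters' processing notes; the counter, annotation, strandedness and normalization tool are not stated in the labels. The step of IRKO replicate 1 (0.991) lies too near 1 for a formal test, so count tests were repeated without it.

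Values were analysed as log2(value + 1) with limma 3.58.1 (R 4.3.3; moderated variances with a trend) on the 14698 genes that reached a value of 10 in 2 or more libraries. P-values were two-sided, with Benjamini-Hochberg adjustment across these genes and a threshold of 0.05. Levels are not per length, so genes are compared only by their changes, except where astrocyte and microglia sums are set side by side. All 48 symbols matched RefSeq (GRCm38.p6); 9 overlap another coding gene and 8 have pseudogenes of their name. A chi-square per degree of freedom of 17.2 to 38.2 separated all replicate pairs. The subunit genes, roles, lists and tests were chosen with earlier results of these data known. Named were, per complex, the 3 lowest and the highest log2 change, all isoform pairs, and the 4 assembly factors of smallest p in each direction. The alternatives were other pseudocounts (0.5 and 5), filters, scalings and variance models, a replicate block, leaving out each library, and edgeR 4.0.16 and DESeq2 1.42.0 on recovered reads. Fits were tested on simulated data.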

Additional observations from a re-analysis of the deposited data

Results flagged for a closer look

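In 7 of 101 sets of 4 IRKO values (6.93%), 1 library stood apart from the other three by Dixon's test; chance alone gives about 1 in 20. IRKO replicate 4 was lowest for Sdha, at 2821 normalized counts beside 3156 to 3221 in the other IRKO libraries. The same library was lowest for Uqcrh, at 5920 beside 7602 to 7850, and for Atp5g3, at 6142 beside 7801 to 8056. IRKO replicate 3 was highest for Cox6a1, at 12868 beside 10738 to 10802, for Cox7c, at 8456 beside 6610 to 6855, and for Atp5g2, at 5026 beside 4105 to 4152. It was also highest for Atpaf1, an assembly factor of complex V, at 316 beside 256 to 258.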

How the results depend on the processing

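Calls and directions of all 47 genes held with pseudocounts of 0.5 and 5, a filter at 50 and TMM scaling. With equal library totals 2441 of all tested genes fell and 6808 rose (median log2 change 0.43). Of the subunit genes 20 fell and 8 rose (median -0.12), and the medians were -0.87 for complex II, -0.32 for complex III (4 fell), 0.17 for complex IV (4 fell, 6 rose) and -0.12 for complex V (2 rose); 16 assembly genes rose (median 0.24). After quantile normalization (all genes 0.12) 8 subunit genes rose (median -0.26), and the medians were -0.98, -0.42, 0.082 (6 rose), -0.21 (2 rose) and, for assembly genes, 0.0027; the ratio differences, set against scaling after the data were seen, became -2.91 for Cox4i2 over Cox4i1, 0.57 for Cox6a2 over Cox6a1, -1.94 for Cox7a1 over Cox7a2 and -2.94 for Cox8b over Cox8a. Scaled to the microglia list (all genes -1.68) 12776 genes fell and 20 rose, with 47 subunit genes lower and 0 higher (median -2.24; medians by complex -2.99, -2.44, -1.95 with 16 lower and 0 higher, and -2.24) and 40 assembly genes lower and 0 higher (-1.88). DESeq2, with 6 libraries or without IRKO replicate 1, called 2 genes higher, both in complex IV.

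Signs turned with equal library totals for Uqcrh (0.081), Cycs (0.26), Cox4i1 (0.20), Cox5b (0.21), Cox6b1 (0.0014), Cox7a2 (0.13), Atp5e (0.22), Atp5g2 (0.024), Atp5j (0.026), Atp5k (0.30) and Atp5mpl (0.19). After quantile normalization they turned for Cycs (0.15), Cox4i1 (0.29), Cox5b (0.13), Cox7a2 (0.034), Atp5e (0.056), Atp5k (0.19) and Atp5mpl (0.022). With the microglia list they turned for Cox6a1 (-1.56), Cox6a2 (-0.59), Cox6c (-1.55), Cox7a2l (-1.31), Cox7c (-1.55), Cox8a (-1.62), Atp5g1 (-1.53), Atp5md (-1.62), Cox17 (-1.13), Ttc19 (-1.26), Lyrm7 (-1.14), Coa5 (-1.37) and Atpif1 (-0.94).

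With 1 library left out, the median of the subunit genes ran from -0.70 to -0.42 and the complex III median from -0.86 to -0.61. Signs turned for Cox6c (range -0.13 to 0.44), Atp5md (-0.15 to 0.31), Cox8a (-0.0066 to 0.15) and Atp5k (-0.25 to 0.013; 0.0046 without Ctr replicate 2). Same-numbered libraries had deviation correlations of -0.0824 and 0.0790. With 2 Ctr libraries the Ctr deviations mirror each other, so these correlations can neither show nor exclude a pairing. In a replicate block IRKO replicates 3 and 4 have no Ctr library of their number, so only replicates 1 and 2 inform the group difference. With a replicate block 6 subunit genes lost their calls, and the median of the subunit genes was -0.53. The block moved the assembly median to -0.096 and turned Cycs (0.0083), Cox8a (-0.072), Atp5g1 (-0.012) and Atp5k (0.013). Without the 100 most abundant genes the share of the library (IRKO minus Ctr, percent) was -0.474 for all 48 genes, -0.0731, -0.113, 0.0629 and -0.355 for complexes II to V. The causes of these changes were not tested. Depth limits Cox8b, Cox7a1, Cox6b2 and Cox7b2 most.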
